A study of Mus musculus with 4 samples.

Results

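The Prg4 Nov Slc47a1 cells were a small population in single-cell RNA sequencing libraries of the mouse brain, and their identity was uncertain. A cell was counted as one of them when it carried a UMI (a unique molecular identifier, which marks one captured RNA molecule) of at least 2 of the 3 genes Prg4, Nov and Slc47a1 and at most 1 UMI in total of Mog, Myh11 and C1qa, which mark oligodendrocytes, smooth muscle cells and microglia. This rule found 425 of the 54754 cells that held 200 to 6000 detected genes and at most 10% mitochondrial UMIs. The cells were thus chosen by measured values of the 3 genes, and their levels of these genes are given as a description.

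The study followed the ipsilateral hemisphere of male mice, 8 weeks old and of the C57/BL6 strain, after transient occlusion of the middle cerebral artery by a monofilament, a model of ischaemic stroke with reperfusion. It had 4 libraries: sham-operated mice, taken at day 7 according to the series text, and mice at days 1, 3 and 7 after occlusion. All 4 groups were perfused, and their tissue was digested with papain and cleared of myelin on Percoll, so cells that resist or do not survive this procedure may be under-represented in every library. The number of mice behind each library is not given in the sources used here. With 1 library in each group there was no replicate, so no difference between libraries could be tested, and each 95% interval below covers counting error only.

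The brain is wrapped in the meninges. The dura lies outermost, the arachnoid below it, and the pia on the brain surface. Arachnoid barrier cells are joined by tight and adherens junctions, E-cadherin (Cdh1) and claudin 11 (Cldn11) among them, and carry efflux transporters that keep blood-borne compounds out of the cerebrospinal fluid. Fibroblasts of the meninges secrete collagens and proteoglycans, and the layers differ in the matrix and solute carriers they express. Of the genes of the rule, Prg4 encodes lubricin, a secreted lubricating proteoglycan of joints and mesothelia, Nov (also called Ccn3) a matricellular protein of the CCN family, and Slc47a1 a proton-coupled exporter of organic cations.

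The libraries held 69392755 to 104023002 UMIs, and the median kept cell held 3178 to 5493 UMIs. The Prg4 Nov Slc47a1 cells were deeper, at medians of 10013.5 UMIs in sham, 7991 at day 1, 12737 at day 3 and 10071 at day 7. Of 59070 distinct cell barcodes, 356 occurred in more than 1 library. None was shared between 2 of the Prg4 Nov Slc47a1 cells, and 5 of these cells had a barcode that also occurred in another library.

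The cells were rare in every library. Sham held 68 of 10193 kept cells (0.667%, exact binomial interval 0.518 to 0.845), day 1 held 187 of 16714 (1.12%, 0.965 to 1.29), day 3 held 97 of 11298 (0.859%, 0.697 to 1.05) and day 7 held 73 of 16549 (0.441%, 0.346 to 0.554). The day 1 share was thus the highest and the day 7 share the lowest, and their intervals did not overlap. Against sham, the ratio of shares was 1.68 at day 1 (1.26 to 2.25), 1.29 at day 3 (0.934 to 1.78) and 0.661 at day 7 (0.469 to 0.934).

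A deeper cell more readily shows a UMI of a rule gene, so the shares were also taken at equal depth. With all cells that held 1000 UMIs or more thinned to that number, the share was 0.354% in sham (33 of 9330 cells), 0.796% at day 1 (116 of 14572), 0.542% at day 3 (56 of 10331) and 0.311% at day 7 (45 of 14447). The ratio to sham became 2.25 at day 1, 1.53 at day 3 and 0.881 at day 7, so the order day 1, day 3, sham and day 7 was kept while the gap between sham and day 7 became smaller. It was not kept at every setting. With at most 3000 detected genes sham was at 0.383% and day 3 at 0.267%. Without the limit on Mog, Myh11 and C1qa day 3 was at 1.37% and day 1 at 1.26%, but of the 58 cells that this added at day 3 only 6 lay in the cluster described next, against 18 of 24 at day 1. At 5% mitochondrial UMIs the order was kept, and the gap between sham at 0.248% and day 1 at 0.988% was wider. The median mitochondrial share of the cells was 6.14% in sham and 6.1% at day 7, against 4.3% at day 1 and 4.26% at day 3, and the part of this difference, of the dissection and of the lone library in each group was not tested. A share among captured cells does not measure how many such cells the tissue held.

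**Figure D1:**
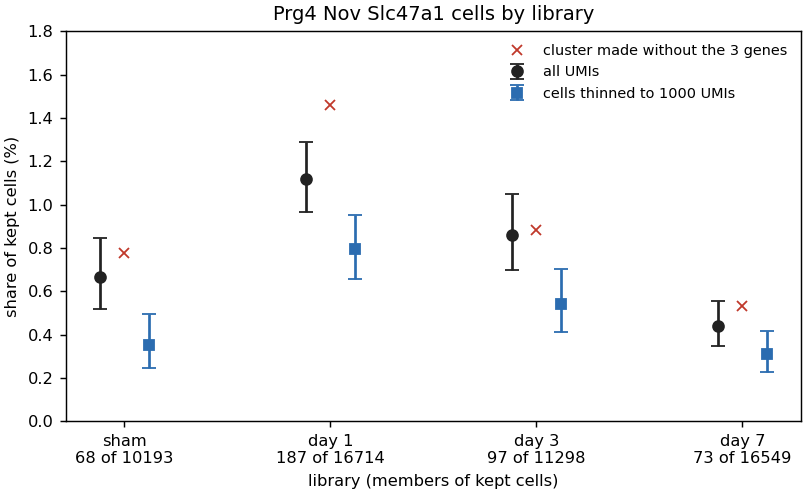
Share of kept cells (%) that met the rule in each library, from all UMIs (black circles) and after thinning each cell to 1000 UMIs (blue squares), with 95% exact binomial intervals; red crosses give the share in a cluster made without the 3 genes. Day 1 was highest by all 3 measures, at 1.12%, 0.796% and 1.46%.

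The cells fell together when the rule genes were hidden. All kept cells were clustered without Prg4, Nov and Slc47a1, and 400 of the 425 cells (94.1%) entered 1 of 31 clusters, where they were 78.3% of 511 cells. This cluster made up 0.775% of the kept cells in sham, 1.46% at day 1, 0.885% at day 3 and 0.532% at day 7. Its 10 leading genes were Igfbp6, Crabp2, Igfbp5, Dapl1, Rspo3, Col6a1, Efemp1, Col6a2, Sfrp4 and Prrx2. The 111 cells of the cluster that missed the rule were shallower, at a median of 3294 UMIs, and 62 of them had 1 rule gene, 19 had none and 30 had more UMIs of the excluded genes than the rule allows. The other 25 cells lay in 13 clusters, at most 7 in any of them.

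Some cells carried RNA of other types. A doublet caller (Scrublet) marked 17 of the 187 cells at day 1, 3 of 73 at day 7 and none in sham or at day 3. These were 9.09% at day 1 and 4.11% at day 7, beside 7.94% and 6.67% of all kept cells. Rules built on markers of other cell types were also met by some of the cells. An endothelial rule (at least 3 of Cldn5, Ly6c1, Flt1 and Pecam1) was met by 71. The libraries differed in this, with 8 of 68 cells in sham, 28 of 187 at day 1, 17 of 97 at day 3 and 18 of 73 at day 7. An astrocyte rule (at least 2 of Aqp4, Gja1 and Slc1a2) was met by 32. A choroid plexus rule (at least 2 of Clic6, Sostdc1 and Kcnj13) was met by 15. A stricter set, chosen after these values were seen, kept the 309 cells inside the cluster that were no doublet call and met none of these 3 rules, 56 in sham, 132 at day 1, 75 at day 3 and 46 at day 7. At the edge of the rule, 12 cells passed with exactly 2 UMIs of the 3 genes and only 2 of those lay in the cluster. Just outside it, 1171 cells had 1 rule gene, which was Nov in 1026, and 59 of them lay in the cluster. A further 98 cells failed through UMIs of Mog, Myh11 or C1qa, 58 of them at day 3.

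Levels below are CPM: the UMIs of a gene and of all genes were summed over the cells of a library, and the first sum was scaled to a common total of the second. They compare a gene across libraries and cell sets and are not used to compare one gene with another. Nov (chr15:54745702-54754039, plus strand, GRCm38) had a UMI in 99.1% of the cells and stood at 1484 CPM in sham, 1477 at day 1, 2080 at day 3 and 1813 at day 7, against 19.2 CPM in all other kept cells. Prg4 (chr1:150449412-150466165, minus strand) was found in 81.9% of the cells, at 1832, 1230, 913 and 1463 CPM in the same order, against 4.71 CPM elsewhere. Slc47a1 (chr11:61343401-61378345, minus strand) was found in 86.6%, at 559.9, 493, 530.1 and 443 CPM, against 0.983 CPM elsewhere. All 3 genes were protein coding, and all 3 were found together in 52 cells in sham, 127 at day 1, 60 at day 3 and 48 at day 7.

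The genes highest over the other cells included Igfbp6, Rspo3 and Crabp2. With 10 CPM added to each level, 120 of the 1590 genes at 100 CPM or more stood at least 4-fold above the other kept cells in every library (7.55%). Because the cells were chosen by their own RNA, these genes describe them and are no test. Of the lists, 8 of 16 matrix and CCN genes, 4 of 9 transporters and 5 of 9 junction genes that reached 100 CPM were among them, and the first of these counts includes Prg4 and Nov and the next Slc47a1, on which the cells were selected. Igfbp6, which binds insulin-like growth factors, was at 2642 CPM in sham, 2041 at day 1, 2325 at day 3 and 1651 at day 7, against 20.8 CPM elsewhere. Rspo3, a secreted enhancer of Wnt signalling, was at 927, 548, 575 and 795 CPM, against 6.06 CPM elsewhere. Crabp2, which binds retinoic acid inside the cell, was at 553, 579, 678 and 404 CPM, against 3.04 CPM elsewhere. The collagen VI chains Col6a1 and Col6a2, the matrix proteins Fbln1 and Efemp1, the coagulation starter F3 (tissue factor) and the connexins Gjb2 and Gjb6 were among the 20 leading genes as well.

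Some leading genes were shared with fibroblasts and others were not. The compared fibroblasts were cells outside the population with UMIs of at least 2 of Col1a1, Dcn and Lum. Among the leading genes, Efemp1 was at 749 CPM and Islr at 566 CPM in these fibroblasts over all libraries, near or within the range of the Prg4 Nov Slc47a1 cells, which were at 331 to 916 and 590.1 to 1092 CPM. Timp1, an inhibitor of matrix proteases, was at 12.4 CPM in the fibroblasts in sham, 1295 at day 1, 32.5 at day 3 and 93.3 at day 7, below the 222, 881 and 188 CPM of the Prg4 Nov Slc47a1 cells in sham and at days 3 and 7 and above their 1031 CPM at day 1. Rspo3 was at 9.24 CPM and Slc26a2, a sulphate transporter, at 15.4 in the fibroblasts over all libraries. The anion exchanger Slc26a7 was at 3.08 and Dapl1 at 3.85. The 32 fibroblasts of day 7 held more of these genes, at 53.3, 33.3, 20 and 33.3 CPM in the same order. So small a set sums to few UMIs, and these levels may rest on very few cells. Slc47a1, also at 53.3 CPM there, was found in only 3.12% of the 32. In the Prg4 Nov Slc47a1 cells Slc26a2 was at 499 CPM in sham and 524, 521 and 614 CPM at days 1, 3 and 7, and Slc26a7 at 170, 309, 243 and 226 CPM.

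The meningeal fibroblast list split in the same way. Of its 10 genes, 6 reached 100 CPM, and all 6 stood at least 4-fold above the other kept cells in every library. Col1a1, a chain of collagen I, was at 424 CPM in sham, 331 at day 1, 1115 at day 3 and 591 at day 7. Dcn, the proteoglycan decorin, was at 632, 264, 326 and 539 CPM. The remaining genes were near background: Lum, the proteoglycan lumican, was at 8.5, 14.6, 12.9 and 4.99 CPM against 1151 CPM in the fibroblasts, and Slc6a13, a transporter of GABA, at 4.86, 3.88, 6.82 and 1.25 CPM against 1015 CPM. The receptor Pdgfra was at 12.1, 27.7, 15.1 and 23.7 CPM against 510.3 CPM. The fibroblast rule itself used Col1a1, Dcn and Lum, and 203 of the Prg4 Nov Slc47a1 cells met it too.

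Genes of the arachnoid barrier were present in part, and 2 of the 6 that reached 100 CPM, of a list of 12, stood 4-fold above the other kept cells in every library. Cdh1, the E-cadherin of adherens junctions, had a UMI in 56.9% of the cells and was at 158 CPM in sham, 229.5 at day 1, 123 at day 3 and 147 at day 7, against 0.87 CPM in the other kept cells and 1.54 CPM in the fibroblasts. After thinning to 4000 UMIs, Cdh1 was found in 47.5% of the cells in sham, 50.7% at day 1, 29.2% at day 3 and 33.3% at day 7, and in at most 0.211% of endothelial cells of any library. Cldn11, a tight junction claudin that oligodendrocytes also use, was at 506, 435, 475 and 603 CPM, and the fibroblasts held 69.3 CPM. The efflux pumps Abcb1a and Abcg2 were at 233 to 420.5 CPM and 440.1 to 559 CPM, below the 915 and 864 CPM of endothelial cells and above the 14.6 and 83.9 CPM of the fibroblasts. The epithelial keratins Krt8 and Krt18 stayed at or below 8.33 CPM in every library, and Dsp, the desmosomal desmoplakin, at 5.3 to 23.7 CPM. The 12 genes together were not higher than in the fibroblasts, which held 38610 CPM of them over all libraries. They summed to 38062 CPM in sham, 11483 at day 1, 13543 at day 3 and 36265 at day 7. Ptgds, also on the list, made up 35821 CPM of the sham sum.

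Of the 6 genes of the dural list, 5 reached 100 CPM and 3 stood 4-fold above the other kept cells in every library. Mgp, an inhibitor of matrix calcification, was at 11192 CPM in sham, 14987 at day 1, 13306 at day 3 and 8540 at day 7, against 3206 CPM in the fibroblasts. Fxyd5, a regulator of the sodium pump, was at 2689, 2480, 2974 and 1522 CPM, against 255 CPM. Dkk2 of the same list was near background, with at most 2 UMIs in any cell. Without its highest cell it was at no more than 0.762 CPM in any library. Of the mesothelial list, Msln (mesothelin) was at 176, 278, 88.6 and 168 CPM in 32.9% of the cells and Krt19 at 32.8 to 62.6 CPM, while Upk3b, Wt1 and Lrrn4 had no UMI in any of the cells. A count of 0 allows up to 1.46 CPM at day 1 and 3.74 CPM at day 7, the deepest and the shallowest sums.

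The astrocyte list of 7 genes was split. Its 2 genes that reached 100 CPM, Gja1 and Gjb6, stood 4-fold above the other kept cells in every library, and the other 5 were low. Aqp4, the water channel of astrocyte endfeet, was at 0 CPM in sham, day 3 and day 7 and at 2.43 CPM at day 1, against 542 CPM in the cells that met the astrocyte rule. That set was mixed, since its 5 ependymal list genes summed to 7937 CPM and its 7 astrocyte list genes to 4803 CPM. The glutamate transporter Slc1a3 was at 9.84 to 13.4 CPM, against 688 CPM in that set, Slc1a2 at 2.27 to 21.2 CPM, against 982 CPM, Gfap at 0 to 11.4 CPM, against 682 CPM, and Aldoc at 1.25 to 9.22 CPM, against 1071 CPM. The gap junction genes Gja1 and Gjb6, which astrocytes share with cells of the meninges, were at 385 to 587 CPM and 358 to 544 CPM, and the fibroblasts held 215 and 330.2 CPM of them. F3, which astrocytes also express, was at 707, 653, 941 and 856 CPM, against 256 CPM in that set and 549 CPM in the fibroblasts. Mrc1 and Cd163 of border macrophages had no UMI. Tmem119, a microglial marker, was at 63.2, 99.5, 65.9 and 64.9 CPM, beside 84.7 CPM in the fibroblasts, while P2ry12 of microglia was at no more than 2.27 CPM. Of the pial list of 5 genes only S100a6 reached 100 CPM, and it was not 4-fold above the other kept cells in every library. No gene of the oligodendrocyte progenitor, oligodendrocyte, olfactory ensheathing and Schwann lists reached 100 CPM. Of the tanycyte list of 4, Col23a1 did and was 4-fold above, while Rax and Scn7a had no UMI. The label of uncertain identity therefore stood. Summed over a library, the cells carried some collagen, barrier and dural genes of the meninges. They held Gja1, Gjb6 and F3 but little of Aqp4, Slc1a2, Slc1a3, Gfap and Aldoc, and matched no single list in full.

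**Figure D2:**
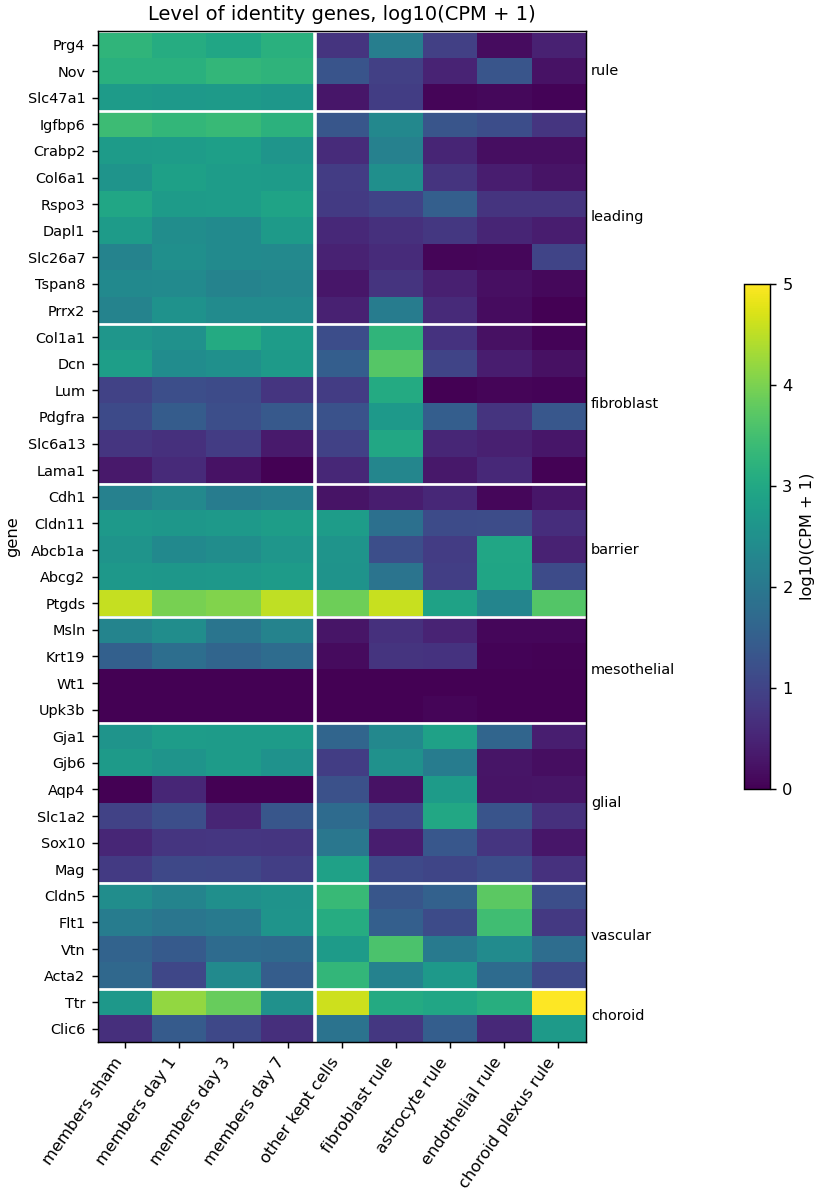
Level of identity genes as log10(CPM + 1) in the Prg4 Nov Slc47a1 cells of each library (left of the white line) and, over all libraries, in the other kept cells and in cells chosen by fibroblast, astrocyte, endothelial and choroid plexus rules (right). Cdh1, Slc26a7 and Rspo3 were high only left of the line among the sets drawn, whereas Lum, Pdgfra and Slc6a13 were high in the fibroblasts and Aqp4 in the cells of the astrocyte rule.

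Of the 27 genes of the transcription factor list, 9 reached 100 CPM and 5 stood 4-fold above the other kept cells in every library. Foxd1 was at 448 CPM in sham, 355 at day 1, 415 at day 3 and 410.5 at day 7, against 292 CPM in the fibroblasts. Foxc2 was at 199, 163, 248 and 263 CPM, against 59.3 CPM, and Six2 at 77.7, 72.3, 106 and 86.1 CPM, against 6.93 CPM. These 3 differed by less than 2-fold between their lowest and highest library. Twist1, at 237, 113, 182 and 201 CPM, and Zic2, at 166, 65.5, 105 and 197 CPM, passed the 2-fold rule used below downward at day 1. Tcf21, which the fibroblasts held at 162 CPM, had no UMI in the Prg4 Nov Slc47a1 cells. The amino acid transporter Slc38a2 was also steady, at 2362, 2181, 2160 and 2603 CPM, against 276 CPM in the fibroblasts.

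Dapl1 divided the cells. It had a UMI in 135 of the 425 cells, 24 in sham, 64 at day 1, 22 at day 3 and 25 at day 7, or 35.3%, 34.2%, 22.7% and 34.2% of the cells. All 135 lay inside the cluster, but Dapl1 was not hidden from that clustering and was among the leading genes of the cluster. Their place in it is thus a description only. This split was chosen after its values were seen, and it is a range more than a class, since 27 of the cells held 1 Dapl1 UMI, 8 held 2 and 100 held 3 or more. The cells with Dapl1 were also deeper, at a median of 14280 UMIs against 8195.5. After thinning to 4000 UMIs the shares were 30.5%, 31.8%, 19.1% and 33.3%, so day 3 stayed lowest.

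Msln, Cdh1 and Ptgds were higher in the cells with Dapl1. Of the 1590 genes, 14 were at least 2-fold higher with Dapl1 in all 4 libraries and 7 were at least 2-fold lower in all 4. Msln was at 319.5 CPM with and 15.5 CPM without Dapl1 in sham, 531 and 51.4 at day 1, 291 and 10.5 at day 3, and 343 and 41 at day 7. Cdh1 was at 218 and 90.1 CPM in sham, 365 and 109 at day 1, 245 and 76.6 at day 3, and 254 and 69.1 at day 7. Ptgds, the prostaglandin D synthase abundant in cerebrospinal fluid, was at 56352 and 12819 CPM in sham, 16153 and 3482 at day 1, 34362 and 2548 at day 3, and 60921 and 14123 at day 7. In each of these genes the cells with Dapl1 were the higher set in every library. The tight junction genes Cldn11 and Tjp1, the receptor Cxadr, the chaperone Clu and Fn1 (fibronectin) also passed 2-fold in all 4 libraries. The peptidase gene Dpp4 of the arachnoid barrier list, which was too low for that count, was at 211 CPM with and 2.58 without Dapl1 in sham, 101 and 0 at day 1, 177 and 4.2 at day 3, and 369.6 and 2.16 at day 7. Abcg2 of the same list was at 356 and 567 CPM in sham, 403 and 473 at day 1, 446 and 469 at day 3, and 432 and 652 at day 7, inside 2-fold throughout. Col1a1 was lower with Dapl1, at 172 and 706 CPM in sham, 269 and 387 at day 1, 451 and 1372 at day 3, and 169 and 900.1 at day 7.

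The lower genes were of 2 kinds. Sfrp4, a secreted modulator of Wnt signalling, Mdk (midkine), Igfbp2 and the matrix protease Adamts1 were at least 2-fold lower with Dapl1 in all 4 libraries. The endothelial genes Cldn5, Ly6c1 and Ly6a were as well, and the part of endothelial RNA in the cells without Dapl1 was not tested. The rule genes also differed along this range, but a cell without a UMI of any 1 of them had to hold the other 2 to be selected, so their opposed levels depend on the rule and are given as a description. Prg4 was at 2211 CPM with and 1406 without Dapl1 in sham, 1792 and 728 at day 1, 1691 and 613 at day 3, and 2291 and 859 at day 7. Slc47a1 ran the other way, at 283 and 870.4 CPM in sham, 435 and 544 at day 1, 416 and 574 at day 3, and 275 and 566 at day 7. Spearman's rho over cells of at least 4000 UMIs, which share library and depth and are no replicates, was 0.76, 0.75, 0.66 and 0.68 between Dapl1 and Msln in sham and at days 1, 3 and 7, and -0.74, -0.20, -0.27 and -0.52 between Dapl1 and Slc47a1.

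**Figure D3:**
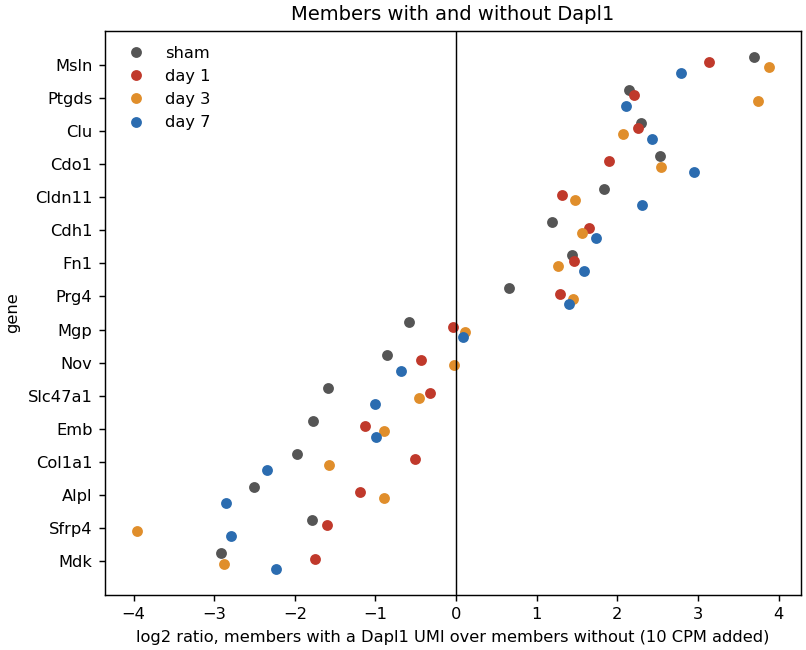
Log2 ratio (10 CPM added) of the level in Prg4 Nov Slc47a1 cells with a Dapl1 UMI over that in cells without, 1 point for each gene and library. Msln, Ptgds, Cldn11 and Cdh1 lie right of 0 and Mdk, Sfrp4 and Slc47a1 left of 0 in all 4 libraries.

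Each day was then set against sham. A gene was counted as past the rule when its level, with 10 CPM added, was at least 2-fold higher or lower than in sham and at least 100 CPM in one of both libraries. At day 1, 64 of 1785 genes were higher (3.59%) and 78 lower (4.37%). At day 3, 74 of 1844 genes were higher (4.01%) and 33 lower (1.79%). At day 1 the balance turned with 50 CPM added (48 higher, 41 lower) and at a minimum of 200 CPM (46 and 38). The excess of higher genes at day 3 was lost when ratios were centred on their median (59 higher, 61 lower). At a limit of 3000 detected genes it was small (224 and 217). At day 7, 66 of 1928 genes were higher (3.42%) and 18 lower (0.934%). The median log2 ratio over all these genes was -0.00 at day 1, 0.10 at day 3 and -0.02 at day 7. In the stricter set of 309 cells 36 genes were higher and 27 lower at day 7, and at the limit of 3000 detected genes 186 were higher and 197 lower, so the excess at day 7 also depends on which cells are taken.

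Sfrp4, Krtdap and Prok2, 3 genes of secreted proteins, were high at days 1 and 3 and low in the other kept cells. Sfrp4 was at 36.4 CPM in sham, 343 at day 1, 449 at day 3 and 73.6 at day 7, in 8, 60, 50 and 12 cells. Without the highest cell sham was at 23.6 CPM and day 7 at 48 CPM. The ratio to sham was 9.40 at day 1 (6.53 to 14) and 12.3 at day 3 (8.54 to 18.4), and the other kept cells held at most 1.35 CPM in any library. After thinning to 4000 UMIs, Sfrp4 was found in 10.2% of the cells in sham, 29.1% at day 1, 41.6% at day 3 and 11.1% at day 7, so sham and day 7 were both low. Endothelial cells, which should lack it, showed it in at most 0.211% of cells.

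Krtdap, named for keratinocyte differentiation, was at 25.5 CPM in sham, all from 1 cell, and at 195 CPM in 65 cells at day 1, 122 CPM in 21 cells at day 3 and 3.74 CPM in 2 cells at day 7. Prok2, the secreted ligand prokineticin 2, had no UMI in sham, which allows up to 3.64 CPM. It was at 90.7 CPM in 23 cells at day 1, 117 CPM in 12 cells at day 3 and 3.74 CPM in 1 cell at day 7, at least 24.9-fold and 32.2-fold higher than that limit at days 1 and 3. A single cell held 98 of the 187 Prok2 UMIs at day 1, and without it the level was 43.6 CPM. At day 3 a single cell held 69 of 155, and without it the level was 66.5 CPM. The other kept cells held at most 0.482 CPM of Krtdap and 3.02 CPM of Prok2, both at day 3. The genes overlapped in part: 31 cells at day 1 and 16 at day 3 held both Sfrp4 and Krtdap, and 19 and 10 held both Sfrp4 and Prok2.

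The metal and redox list summed higher at day 1 than in sham, in these cells and in the rest of the library. Of the metal and redox list, 3 of 3 genes that reached 100 CPM passed the rule at day 1, where the median log2 ratio was 1.12, and 1 of 4 passed at day 3. The 7 genes summed to 2864 CPM in sham and 6128 at day 1, against 1304 and 2841 CPM in the other kept cells. Hmox1, the haem oxygenase, was at 13.4 CPM in sham, 151 at day 1, 329 at day 3 and 6.24 at day 7, and the other kept cells were at 14.5, 115, 46.7 and 10.6 CPM. Day 3 was thus highest in the Prg4 Nov Slc47a1 cells and day 1 in the other cells. The metallothionein gene Mt1 was at 2451, 5255, 4018 and 2573 CPM. Fth1, the heavy chain of the iron store ferritin and not on the list, was at 3840, 21544, 10923 and 4536 CPM. Its ratio to sham at day 1 was 5.61 (5.41 to 5.82), a log2 ratio of 2.48 with 10 CPM added. In the other kept cells the log2 ratio was 0.47, inside 2-fold.

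Some acute phase genes were higher, mostly at days 1 and 3. Of the acute phase and cytokine list, 3 of 5 genes passed the rule upward at day 1, 4 of 6 at day 3 and 2 of 5 at day 7, and none passed downward. Timp1 was at 222 CPM in sham, 1031 at day 1, 881 at day 3 and 188 at day 7. Cebpd, a transcription factor of the acute phase, was at 88.7, 306, 242 and 189.6 CPM. Lcn2, the iron-binding lipocalin 2, had 1 UMI in sham (1.21 CPM) and was at 129, 282 and 159.7 CPM at days 1, 3 and 7. The other kept cells held 1435 CPM of Lcn2 at day 3. The neutrophil gene S100a8 was at 0 CPM in sham and at day 1 and at 407 CPM in 13 cells at day 3 (278 CPM without its highest cell). The 5 genes of the leukocyte list, S100a8 among them, summed to 8.5, 2.43, 419.5 and 984 CPM. At day 7 a single cell held 764 UMIs of S100a8, which was at 1.26 CPM without that cell. The part of leukocyte RNA in these values was not tested. At day 7 Lcn2 came from 9 cells and was at 86.8 CPM without the highest of them, and in the stricter set its log2 ratio to sham was 1.16 in place of 3.92. Socs3, a suppressor of cytokine signalling, was at 257, 199, 179 and 263 CPM. Serpina3n was at 0 CPM in sham, day 3 and day 7 and at 5.34 CPM at day 1, and Saa3 had no UMI.

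Ifitm1, an interferon-inducible membrane protein, and the calcium-binding S100a6 were among the 8 largest increases at day 1. Ifitm1 was at 32.8 CPM in sham (17.5 without its highest cell), 716 at day 1, 309 at day 3 and 43.7 at day 7. S100a6 was at 243, 2512, 889.8 and 504 CPM, and the other kept cells were highest at day 1 too, at 681 CPM. Both genes were highest at day 1 and lowest in sham. At day 3 the cochaperone Dnajc5b was at 130.2 CPM against 17 CPM in sham, 66 at day 1 and 31.2 at day 7, and the other kept cells held at most 0.576 CPM.

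Igfbp2, Igfbp4 and Igfbp5, which bind insulin-like growth factors, were higher at days 1 and 3. Igfbp5 was at 847 CPM in sham, 1895 at day 1, 2503 at day 3 and 1496 at day 7. Igfbp4 was at 170, 482, 605 and 196 CPM and Igfbp2 at 188, 484, 525 and 197 CPM. All 3 passed the rule at days 1 and 3 and not at day 7, and Igfbp6 and Igfbp7 did not pass it on any day. Igfbp3 was below the minimum of 100 CPM in every library, so the rule could not count it. Igfbp7 was at 581, 352, 553 and 497 CPM, lowest at day 1. Of the secreted signals list, 3 of 12 genes were higher and 2 lower at day 1, 5 higher and 1 lower of 12 at day 3, and 1 of 13 higher at day 7. Bmp4, a bone morphogenetic protein, was at 587, 263, 299.9 and 462 CPM, lowest at day 1. Penk, which encodes the enkephalin precursor, was at 287, 191, 987 and 604 CPM and had its highest level at day 3.

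Summed over all the cells, genes of collagens I and III were highest at day 3. Of the meningeal fibroblast list, 4 of 6 genes passed the rule upward at day 3, with a median log2 ratio of 1.11, against 1 higher and 1 lower at day 1 and none at day 7. Col1a2, the partner of Col1a1 in collagen I, was at 503 CPM in sham, 744 at day 1, 1172 at day 3 and 816 at day 7, and Col3a1, the chain of collagen III, at 213, 329, 538 and 157 CPM. A single cell held 103 of the Col3a1 UMIs in sham, and without it sham was at 89.3 CPM, while day 3 without its highest cell was at 381 CPM. In the cells with Dapl1, Col1a2 and Col3a1 were higher at day 1 (607 and 355 CPM) than at day 3 (584 and 174), while Col1a1 was highest at day 3. In the cells without Dapl1, Col1a1, Col1a2 and Col3a1 were each highest at day 3. Their log2 ratios to sham there were 0.95, 0.78 and 0.81, inside 2-fold. In the wider collagen list 3 of 10 genes were higher and 2 lower at day 3.

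Ptgds and Klf5 were low at days 1 and 3 and near the sham level at day 7. Ptgds was at 35821 CPM in sham, 9451 at day 1, 11410 at day 3 and 33871 at day 7. The transcription factor Klf5 was at 307, 122, 104 and 318 CPM. Ptgds was also a gene of the cells with Dapl1, whose share was 35.3% in sham, 34.2% at day 1 and 22.7% at day 3. Ptgds stood in the cells with Dapl1 at 56352 CPM in sham, 16153 at day 1 and 34362 at day 3, and at 12819, 3482 and 2548 CPM in the cells without. Day 1 was lowest with Dapl1, where the day 3 log2 ratio of -0.71 was inside 2-fold, and day 3 was lowest without, at -2.33. Stbd1, a glycogen-binding protein, was low on every day, at 267, 36.9, 97.7 and 44.9 CPM, and Lypd2 was at 364, 119, 164 and 141 CPM. The low Lypd2 level did not hold at every setting: within the cells with Dapl1 it was at 584 CPM in sham and 522 at day 3, and with at most 3000 detected genes its log2 ratio at day 7 was 0.58.

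Genes of antigen presentation were lowest at day 1 and highest at day 3. Cd74, the invariant chain of MHC class II, was at 361 CPM in sham, 41.7 at day 1, 1072 at day 3 and 412 at day 7. A single cell held 291 of the Cd74 UMIs at day 3, and the level without it was 864 CPM. The other kept cells were at 60.1, 38.4, 128 and 98 CPM. The class II genes H2-Aa, H2-Ab1 and H2-Eb1 were looked up after this was seen, and H2-Aa was at 81.4, 13.1, 251 and 81.1 CPM in 23, 16, 47 and 24 cells. H2-Ab1 was at 69.2, 7.28, 179 and 51.2 CPM and H2-Eb1 at 60.7, 9.22, 216 and 69.9 CPM, so that day 1 was lowest and day 3 highest in Cd74 and in these 3 genes. Of the cells with H2-Aa, 20 of 23 in sham and 42 of 47 at day 3 also held Cd74. After thinning to 4000 UMIs H2-Aa was found in 23.7% of the cells in sham, 4.05% at day 1, 33.7% at day 3 and 22.2% at day 7. In endothelial cells it was found in at most 2.66%. None of 64 fibroblasts at day 1 and 17 at day 3 held it, which allows up to 5.6% and 19.5%. Without thinning, 1.96% of the fibroblasts at day 3 held it. S100a8, and with it the leukocyte list, was higher at day 3 too, as given for Lcn2, and the part of immune cell RNA was not tested.

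At day 7 S100a8 and S100a9, both genes of neutrophils, were among the 8 largest increases, and each rested on 1 cell. Of the 765 S100a8 UMIs, 764 were in 1 cell, and all 730 S100a9 UMIs were in 1 cell. The lipid-binding apolipoprotein Apod was at 573 CPM in sham, 674 at day 1, 544 at day 3 and 1719 at day 7, and its ratio to sham at day 7 was 3.00 (2.70 to 3.34). Egr1, an immediate-early transcription factor, was at 349, 527, 376 and 997 CPM, and 3 of the 10 immediate-early genes passed the rule upward at day 7. The log2 ratio of Egr1 in the other kept cells at day 7 was 1.35, close to the 1.49 of the Prg4 Nov Slc47a1 cells. Handling of the tissue was not tested as a part of it.

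RNA of abundant neighbours was present in the cells and differed between libraries. Ttr, the transthyretin of the choroid plexus, was at 459 CPM in sham, 15733 at day 1, 6802 at day 3 and 343 at day 7, and the other kept cells held 25035, 60524, 56070 and 19318 CPM. A single cell at day 1 held 9864 Ttr UMIs. Cldn5 of endothelium was at 279 (175 without its highest cell), 180, 312 and 361 CPM, and 3 of 5 endothelial genes passed the rule upward at day 7. Acta2 of smooth muscle was at 47.4 (10 without its highest cell), 10.7, 251 and 28.7 CPM. The part of free RNA and of doublets in the values above was not tested.

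**Figure D4:**
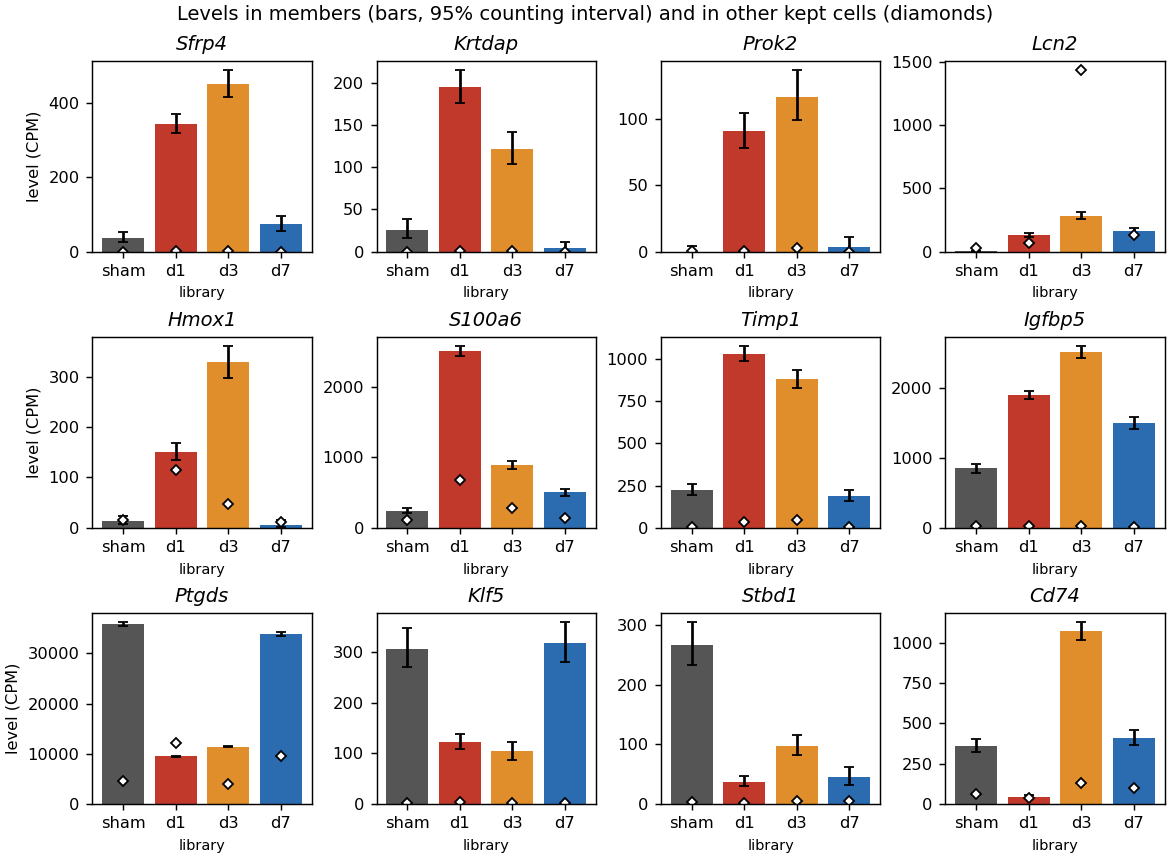
Level (CPM) of 12 genes in the Prg4 Nov Slc47a1 cells of each library, with exact 95% Poisson intervals (bars), and in the other kept cells (white diamonds). Sfrp4, Krtdap and Prok2 stand high at days 1 and 3 with diamonds near 0, while Ptgds and Klf5 are low on those days and Lcn2 has its highest diamond at day 3.

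Most genes of the interferon list were lower at days 1 and 7 than in sham. These genes are switched on by interferon-activated factors that bind a motif with repeated GAAA. Ifit1 was at 469 CPM in sham, 76.2 at day 1, 117 at day 3 and 143 at day 7, Isg15, a ubiquitin-like modifier, at 1064, 146, 324 and 287 CPM, and Bst2 (tetherin) at 615, 121, 419.5 and 235 CPM. Of the 10 genes on the list, 7 of 8 that reached 100 CPM were lower at day 1 (median log2 ratio -2.39), 5 of 9 were lower and 1 higher at day 3 (-1.12), and 7 of 8 were lower at day 7 (-1.63). Gbp2, a guanylate-binding protein, was the 1 higher at day 3, at 51 CPM in sham, 32 at day 1, 118 at day 3 and 54.9 at day 7.

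The other cells of the libraries moved the same way. At day 1 the log2 ratio in all other kept cells was -3.17 for Ifit1 and -3.34 for Isg15, below the -2.47 and -2.79 of the Prg4 Nov Slc47a1 cells. The high level of sham was thus shared with the rest of its library, and with 1 library it cannot be told apart from the preparation of that library.

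The promoters of 7 of the 10 genes were found in RefSeq (GRCm38.p6), and the motif GAAANNGAAA, or TTTCNNTTTC on the other strand, was searched in the 250 bases before each start. It was found in 5 of the 7, against 978 of 32851 promoters of the same length (2.98%). The windows around it are shown for 3 genes that were low at days 1 and 7 and for Gbp2. They run 5′ to 3′ on the strand of the gene, with the motif in capitals. The windows are Ifit1 at chr19:34640770-34640828 (plus), Isg15 at chr4:156200860-156200911 (minus), Bst2 at chr8:71537572-71537617 (minus) and Gbp2 at chr3:142620589-142620628 (plus).
Ifit1: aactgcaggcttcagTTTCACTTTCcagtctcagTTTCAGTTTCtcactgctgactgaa
Isg15: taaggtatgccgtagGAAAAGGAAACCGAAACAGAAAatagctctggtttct
Bst2: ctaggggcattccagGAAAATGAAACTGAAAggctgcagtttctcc
Gbp2: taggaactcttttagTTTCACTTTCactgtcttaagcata
Capitals of matches that overlap run together, as in Isg15 and Bst2. A match describes these letters only. No match was found in the windows of Ifitm3, which was at 2129 CPM in sham and 2487, 2501 and 1490 CPM at days 1, 3 and 7, and of Irf7, at 104, 13.1, 66.6 and 27.4 CPM.

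**Figure D5:**
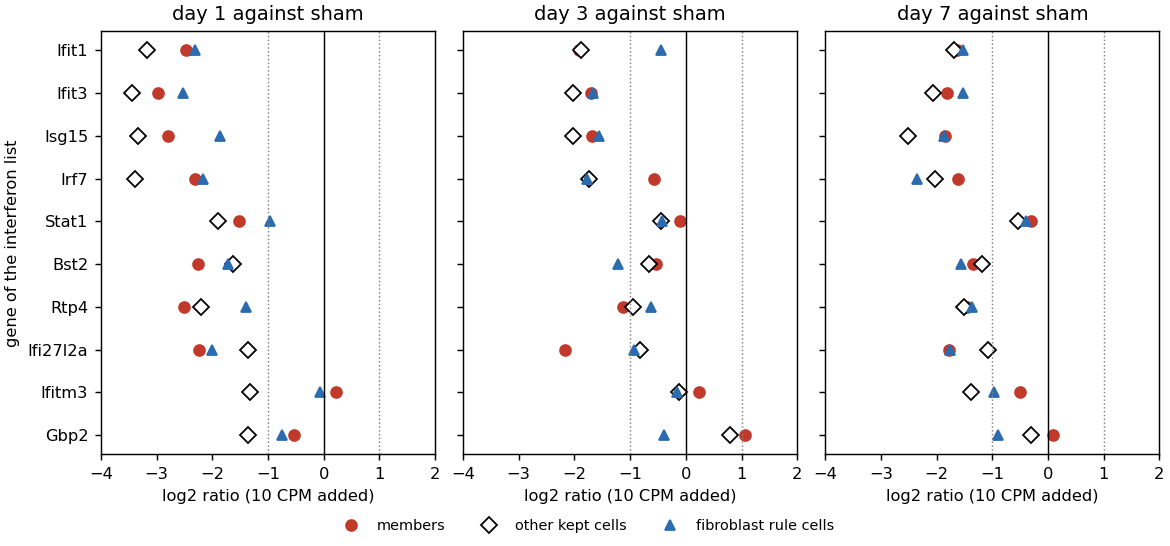
Log2 ratio of each day to sham (10 CPM added) for the 10 genes of the interferon list in the Prg4 Nov Slc47a1 cells (members, red), the other kept cells (diamonds) and the fibroblasts (triangles), with dotted lines at 2-fold. Most points of all 3 sets lie left of 0, and Ifitm3 and Gbp2 lie nearest to it at day 1 in the Prg4 Nov Slc47a1 cells.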

How the data were processed

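The authors deposited raw UMI count matrices (10x Genomics), 1 for each of 4 libraries. The submitters' processing notes name Cell Ranger 3.0.1 and Seurat 4.1.2 and the build GRCh38, whereas the matrix headers give version 4.0.0 and the features are mouse genes. Coordinates were taken from GENCODE M21 (GRCm38), which held 99.6% of the features. Libraries were read with scipy 1.17.1, and all kept cells were clustered and doublets called with scanpy 1.11.5 (2000 variable genes, 30 components, 20 neighbours, Leiden resolution 1, without the rule genes). Doublet calls were not removed. The counts were summed over cells of each library and scaled to CPM. Log2 ratios used 10 CPM added and a minimum of 100 CPM. Intervals are exact 95% intervals (Clopper-Pearson for shares, Poisson for levels, conditional binomial for ratios) and cover counting error only. No p-value is given, because each group was 1 library.

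The members and lists were chosen with earlier results of these data known. The named genes were the 3 rule genes, the 20 genes with the highest lowest ratio over other kept cells, the 8 largest increases and decreases at each day among genes at least as high as in the other kept cells, and the genes of 22 identity and 14 function lists. H2-Aa, H2-Ab1, H2-Eb1, Clu and Ttr were chosen after their values were seen, as was the split by Dapl1. Values of a single gene among those selected are left out here. The alternatives tried were other limits, filters, scalings and sets of cells.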

Additional observations from a re-analysis of the deposited data

How the results depend on the processing

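No paired analysis was possible because each group was 1 library. At a limit of 3000 genes, which removes the deeper cells, the shares in sham and at days 1, 3 and 7 were 0.383%, 0.748%, 0.267% and 0.185%. At 5% mitochondrial UMIs sham, day 3 and day 7 were 0.248%, 0.685% and 0.166%. With all 3 genes required the shares were 0.51%, 0.76%, 0.531% and 0.29%, and after thinning 0.354%, 0.796%, 0.542% and 0.311%. Day 3 was 0.637% with no UMI of the excluded genes allowed and 1.37% with no limit on them, above the 1.26% of day 1, and the cluster gave 1.46% at day 1. With 50 CPM added, 50 genes were 4-fold above the other cells. Of counts against sham, 50 CPM added gave 41 lower at day 1, 20 lower at day 3 and 25 higher at day 7, and a minimum of 200 CPM gave 38 lower at day 1, 45 higher and 20 lower at day 3 and 30 higher at day 7. The limit of 3000 genes gave 147 higher and 246 lower, 224 and 217, and 186 and 197 at days 1, 3 and 7. Centring on the median ratio gave 61 lower at day 3, and the mean CPM per cell 60 lower at day 3 and 32 lower at day 7. Cells inside the cluster gave 40 higher at day 7, and the stricter set 36. The share of higher genes among those past the rule was 69.2% at day 3, 49.2% when centred and 53.8% per cell. At day 7 it was 78.6%, and 57.1% in the stricter set, 48.6% at 3000 genes and 67.6% with 50 CPM added. Lypd2 at day 7 turned to 0.58 (log2) at 3000 genes. S100a8 at day 7 was at most 0.27 (log2) and S100a9 at 0.00 without the cell that held most of their UMIs. The settings without a limit on the excluded genes, centred, per cell, in the stricter set and without single cells were chosen after seeing the data. The 8 largest increases and decreases at each day, 48 values, were run under some of these alternatives only. These were 50 CPM added, the limit of 3000 genes, all 3 genes required, and doublet calls left out. The others were cells inside the cluster, the stricter set, the mean CPM per cell, and the highest cell left out. Of the 384 values this gave, 368 kept direction and side of the 2-fold rule. The other named genes were not run. A gene with no UMI may still have been at up to 3.74 CPM at day 7, the library with the fewest UMIs in these cells.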
